A study of Mus musculus with 12 samples.

Results

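CC chemokines are small secreted proteins that draw leukocytes along a gradient, and 10 of their genes that macrophages are known to express are described here: Ccl2, Ccl3, Ccl4, Ccl5, Ccl6, Ccl7, Ccl8, Ccl9, Ccl12 and Ccl22. They were taken by gene symbol from a table of 22294 genes, all 10 symbols were found once, and all 10 were among the 11604 genes with enough signal to test. RNA was sequenced from F4/80-positive cells, the macrophage fraction, pulled out with magnetic beads from enzyme-digested mouse endometrium. The 12 libraries fall into 4 groups, each with 3. The Sham group underwent only a mock operation and is labelled untreated. The IUA group modelled intrauterine adhesion, scarring that closes the uterine cavity, and their libraries bear the name Matrigel, a basement membrane gel whose role is not stated. If the gel went to the IUA group alone, gel and model cannot be told apart. The other 2 groups, control MSC and primed MSC, were IUA mice that also received hUC-MSC, a common abbreviation for mesenchymal stromal cells of human umbilical cord, unprimed or primed with inflammatory cytokines. Strain, age, time after surgery and the number of mice per library are not given in the sources used here, so p-values reflect only the scatter among the libraries, which may be technical. All levels are FPKM as deposited, read fragments scaled by transcript length and library size, so that they can be compared between genes.

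CC chemokines act through G protein-coupled receptors, and most ligands bind several receptors while most receptors take several ligands. CCR2 brings monocytes out of bone marrow and into tissue toward Ccl2, Ccl7 and Ccl12. CCR1, carried by monocytes, macrophages and neutrophils among others, takes Ccl3, Ccl5 and the rodent ligands Ccl6 and Ccl9, while CCR4 on T cells takes Ccl22. In the uterus these genes are known for recruiting leukocytes during the cycle, pregnancy and repair.

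Of the 10 genes, 9 lie on mouse chromosome 11 in GENCODE M21 (GRCm38, the assembly of mm10), in groups of neighbours. The cluster of monocyte chemoattractant proteins (MCP) held Ccl2, Ccl7, Ccl12 and Ccl8, in that order, in 81.2 kb (82035571 to 82116799). The cluster of macrophage inflammatory proteins (MIP) held Ccl5, Ccl9, Ccl6, Ccl3 and Ccl4 in 138.9 kb (83525778 to 83664683), and 1409 kb separated the clusters. Ccl22 lies apart on chromosome 8 (94745590 to 94751699). RefSeq windows (GRCm38.p6) of the 250 bases before the gene start were matched for 6 of the 10 genes, and the windows of neighbours are shown here because Ccl6 and Ccl9 had the largest log2 changes between IUA and Sham of the 10, whereas Ccl8 and Ccl12 did not pass that comparison. Capitals mark every word of 8 or more bases that the partner's window holds on the same strand. The windows are chr11:83593088-83593337 on the minus strand for Ccl6, chr11:83578637-83578886 on the minus strand for Ccl9, chr11:82114935-82115184 on the plus strand for Ccl8 and chr11:82101595-82101844 on the plus strand for Ccl12, each written 5′ to 3′.
Ccl6: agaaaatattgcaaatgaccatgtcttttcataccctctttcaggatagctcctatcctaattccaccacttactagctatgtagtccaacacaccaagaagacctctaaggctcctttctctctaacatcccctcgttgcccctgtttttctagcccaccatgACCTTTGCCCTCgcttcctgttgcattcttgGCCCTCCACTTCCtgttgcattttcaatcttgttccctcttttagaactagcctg
Ccl9: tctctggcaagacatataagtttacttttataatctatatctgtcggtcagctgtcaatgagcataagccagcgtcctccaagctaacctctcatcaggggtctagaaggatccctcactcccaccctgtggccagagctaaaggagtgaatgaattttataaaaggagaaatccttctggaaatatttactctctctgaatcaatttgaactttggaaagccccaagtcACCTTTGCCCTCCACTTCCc
Ccl8: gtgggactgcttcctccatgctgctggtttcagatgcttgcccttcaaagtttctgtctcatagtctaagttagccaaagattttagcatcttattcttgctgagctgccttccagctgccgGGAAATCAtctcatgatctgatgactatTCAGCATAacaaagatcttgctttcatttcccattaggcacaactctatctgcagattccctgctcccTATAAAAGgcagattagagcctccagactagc
Ccl12: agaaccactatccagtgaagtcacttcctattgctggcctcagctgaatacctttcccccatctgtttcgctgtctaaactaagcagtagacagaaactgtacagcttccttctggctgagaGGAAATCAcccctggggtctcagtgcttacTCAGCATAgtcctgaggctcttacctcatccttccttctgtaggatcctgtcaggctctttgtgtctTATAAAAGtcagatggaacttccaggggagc
Ccl6 and Ccl9 shared 2 such words, of 12 and 13 bases, and 13 was the longest shared word among the 15 pairs of the 6 windows. The words do not stand at the same distance from the start: they began 86 and 55 bases before it in Ccl6, and 20 and 14 bases before it in Ccl9, where they overlap. Ccl8 and Ccl12 shared 3 words of 8 bases at nearly the same distances, 128, 100 and 32 bases before the start of Ccl8 and 128, 98 and 31 before that of Ccl12, and the word nearest the start holds the TATA letters TATAAA. That number of words is not particular to neighbours: Ccl9 and Ccl12, from different clusters, also shared 3, the longest of 9 bases. On either strand, TATAAA occurred in the windows of Ccl8, Ccl9 and Ccl12 and in 12.4% of 32851 windows of the same length. The NF-kB consensus had a match in Ccl9 alone of the 6 (7.3% of all windows), as did the AP-1 letters TGANTCA (6.7%). The ETS letters ACTTCC, which PU.1 can bind, were found in 5 of the 6 windows, all but that of Ccl8, against 19.7% of all windows. The letters of C/EBP (TTGCNNAA, 9.6%), of the interferon-gamma-activated site (TTCNNNGAA, 7.0%) and of the STAT6 motif (5.9%) were in none of the 6. A match to letters is a description of the sequence and not a measured site.

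Before the single genes, the libraries as a whole bear on all of them. Epithelial markers (Krt8, Krt18, Krt19, Epcam, Cdh1, Pax8) summed to 7038 to 12177 FPKM in Sham libraries and 1315 to 4717 in all others, while 9 macrophage markers, the F4/80 gene Adgre1 among them, summed to 3427 to 4706 in Sham and 6558 to 8889 elsewhere. Sham libraries thus held more epithelial and less macrophage marker RNA than any other. Within Sham the mean log2 level of the epithelial markers was 8.48 in replicate 1, 9.31 in replicate 2 and 9.33 in replicate 3. Replicate 1, with the least, also had the highest value of its group for 9 of the 10 genes. The part of the epithelial RNA in the chemokine values was not tested beyond the covariate reported beside them. In such bulk samples fewer cells of a type and less RNA per cell cannot be told apart. Over all tested genes the median log2 difference of IUA from Sham was -0.35, and it became -0.035 when libraries were scaled to a common median ratio. Values also followed the GC content of transcripts differently by library: the Spearman correlation over 11601 genes, which are not independent, was -0.485 in IUA replicate 3 and between -0.183 and 0.22 in the other 11. By the moderated F test of limma over the 4 groups, 6 of the 10 genes differed (Ccl3, Ccl6, Ccl7, Ccl8, Ccl9 and Ccl22), beside 67.0% of all tested genes.

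The rodent CCR1 ligands Ccl6 and Ccl9 showed the clearest pattern, high in every IUA library and low in every Sham library. Ccl6, also called C10, attracts monocytes and macrophages and is induced by interleukin 4. It stood at 286, 184 and 215 FPKM in Sham replicates 1 to 3, 1189, 1273 and 1071 in IUA, 732, 926 and 897 in control MSC, and 553, 601 and 534 in primed MSC. No library of any group overlapped with one of another group, and the order of means was IUA, control MSC, primed MSC, Sham. Ccl6 rose 5.16-fold in IUA against Sham (1178 ± 101 against 228 ± 52.5 FPKM, SD, n = 3), a log2 change of 2.38 ± 0.15 (SE, adjusted p = 1.59e-06). It fell in primed MSC against IUA (log2 change -1.06 ± 0.15, adjusted p = 0.00132). The steps between neighbours in that order did not pass: control MSC against IUA was -0.47 ± 0.15 (adjusted p = 0.139) and primed against control MSC -0.59 ± 0.15 (adjusted p = 0.161). Primed MSC stayed above Sham (log2 change 1.32 ± 0.15, adjusted p = 3.35e-05), as did control MSC (1.91 ± 0.15, adjusted p = 4.31e-06).

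Ccl9, known as MIP-1 gamma, attracts monocytes, osteoclast precursors and dendritic cells through CCR1. Its FPKM was 102, 66.9 and 63.2 in Sham, 267, 262 and 268 in IUA, 254, 301 and 267 in control MSC, and 200.2, 198 and 184 in primed MSC. The IUA libraries were nearly alike, and primed MSC lay below every IUA and control MSC library and above every Sham library. Ccl9 rose 3.44-fold in IUA against Sham (log2 change 1.80 ± 0.15, adjusted p = 7.94e-06) and was as far above Sham in control MSC (1.84 ± 0.15, adjusted p = 4.82e-06). Primed MSC was above Sham by less (1.35 ± 0.15, adjusted p = 2.74e-05). The difference of primed MSC from IUA was -0.45 ± 0.15 and just missed the threshold (adjusted p = 0.0536), and that from control MSC was -0.49 ± 0.15 (adjusted p = 0.227). Without Sham replicate 1, whose Ccl9 was the highest of its group, the first of these passed (adjusted p = 0.00616), and with a filter at FPKM 5 it passed too (adjusted p = 0.04897).

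**Figure D1:**
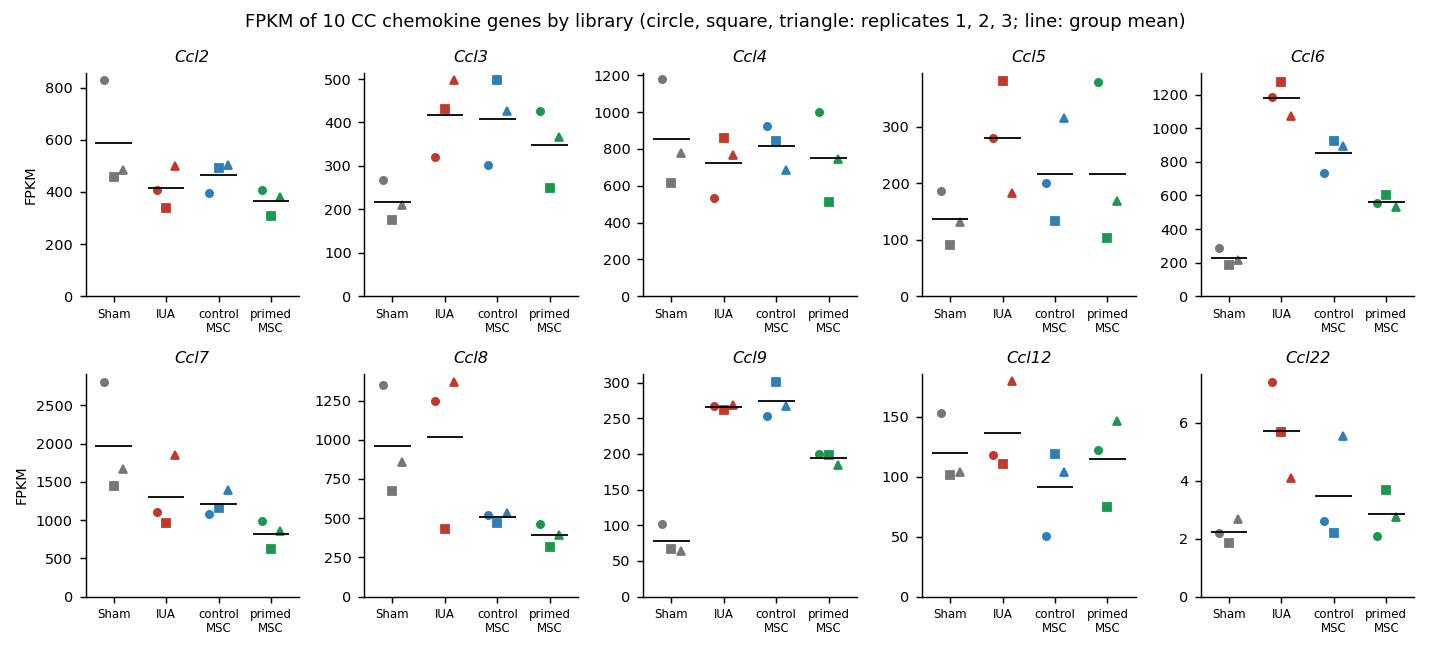
FPKM of the 10 CC chemokine genes (y axes, linear from 0) in the 3 libraries of each group (points; circle, square and triangle are replicates 1, 2 and 3) with the group mean (line). Ccl6 and Ccl9 separate Sham from all other libraries, whereas Sham replicate 1 stands at the top of its group for 9 of the 10 genes.

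Among the classical MIP proteins Ccl3 rose in IUA and Ccl4 did not pass in any comparison. Ccl3 (MIP-1 alpha) recruits monocytes, neutrophils and T cells. It stood at 267, 175 and 210.0 FPKM in Sham, 321, 432 and 497 in IUA, 302, 497 and 427 in control MSC, and 427, 249 and 366 in primed MSC. Every IUA and control MSC library was above every Sham library, while primed MSC replicate 2 fell among the Sham values. Ccl3 rose 1.92-fold in IUA against Sham (log2 change 0.93 ± 0.24, adjusted p = 0.00636), by 0.90 ± 0.24 in control MSC against Sham (adjusted p = 0.00749) and by 0.66 ± 0.24 in primed MSC against Sham (adjusted p = 0.0331). The last call was lost without primed MSC replicate 1 (adjusted p = 0.135), without primed MSC replicate 3 or Sham replicate 2 or 3 (0.0893, 0.127 and 0.0750), and with no filter on low values (0.0607). With the epithelial marker mean of each library as a covariate, the rise in IUA did not pass (0.85 ± 0.40, adjusted p = 0.173), nor did those in control MSC (0.326) and primed MSC (0.446).

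Ccl4 (MIP-1 beta), the neighbour of Ccl3, attracts monocytes and T cells. It stood at 1177, 615 and 776 FPKM in Sham, 532, 862 and 769 in IUA, 923, 845 and 687 in control MSC, and 1001, 512 and 743 in primed MSC. The groups overlapped throughout, and the range within Sham was wider than any difference of group means. The log2 change in IUA against Sham was -0.22 ± 0.28 (adjusted p = 0.508) and became 0.15 ± 0.27 with median-ratio scaling, so it has no settled sign. Ccl4 was nonetheless the third highest of the 10 genes by mean FPKM in Sham, after Ccl7 and Ccl8, and the second highest in primed MSC.

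Ccl5 (RANTES), a ligand of CCR1 and CCR3 made by T cells, NK cells and activated macrophages, had the most scattered group of any of the 10 genes. It stood at 186, 90.2 and 132 FPKM in Sham, 280.0, 379.9 and 182 in IUA, 199.5, 132 and 316 in control MSC, and 378, 103 and 169 in primed MSC. The primed MSC libraries alone spanned nearly the whole range of the study, with a coefficient of variation of 66.2%. The log2 change in IUA against Sham was 1.04 ± 0.45 (adjusted p = 0.0688). It passed in several alternatives, at adjusted p = 0.0236 with median-ratio scaling, 0.0191 after a GC correction, 0.0496 without Sham replicate 1 and 0.0479 without IUA replicate 3. The T cell markers Cd3d, Cd3e, Cd3g, Cd8a and Cd4 summed to 1.56 to 4.55 FPKM in all libraries, with mean Cd3e at most 0.207 in any group, and 5 NK markers summed to 27.0 to 50.3 FPKM in Sham, 19.0 to 28.2 in IUA, 5.49 to 34.8 after control MSC and 8.99 to 10.5 after primed MSC. Their part in the Ccl5 values was not tested.

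Of the 4 MCP genes none passed in IUA against Sham, where 56.2% of all tested genes did, and 3 fell in primed MSC against Sham, where 45.0% of all tested genes fell. With median-ratio scaling, after the GC correction or without Sham replicate 1, 1 of the 3 falls (Ccl7) passed. Ccl7 (MCP-3), a CCR2 ligand that mobilises monocytes, was the most abundant of the 10 genes in Sham. It stood at 2807, 1443 and 1662 FPKM in Sham, 1104, 959 and 1852 in IUA, 1079, 1159 and 1392 in control MSC, and 989, 626 and 856 in primed MSC. Primed MSC lay below every control MSC and Sham library, and IUA overlapped with both Sham and control MSC. Ccl7 fell to 0.418 times its Sham mean in primed MSC (log2 change -1.22 ± 0.28, adjusted p = 0.00260), a call lost with the epithelial covariate (-1.59 ± 0.51, adjusted p = 0.0647). The differences of IUA (-0.59 ± 0.28, adjusted p = 0.0879) and control MSC (-0.65 ± 0.28, adjusted p = 0.0638) from Sham did not pass, nor did primed MSC against IUA (-0.63 ± 0.28, adjusted p = 0.131). Without IUA replicate 3, the IUA library with the most Ccl7, the difference of IUA from Sham passed (-0.88 ± 0.27, adjusted p = 0.0185). It passed with TPM scaling too (-0.71 ± 0.27, adjusted p = 0.0373).

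Ccl2 (MCP-1), the main CCR2 ligand, stood at 829, 456 and 482 FPKM in Sham, 409, 337 and 498 in IUA, 396, 490.1 and 503 in control MSC, and 409, 308 and 379.9 in primed MSC. Sham replicate 1 lay far above all other libraries, which spanned 308 to 503. Ccl2 fell in primed MSC against Sham (log2 change -0.64 ± 0.22, adjusted p = 0.0231), and this call rested on that library: it was -0.37 ± 0.17 without it (adjusted p = 0.0916). It was also lost with median-ratio scaling (-0.25 ± 0.23, adjusted p = 0.367) and without primed MSC replicate 2 (-0.52 ± 0.24, adjusted p = 0.0890). The change in IUA against Sham was -0.47 ± 0.22 (adjusted p = 0.0845). It passed with TPM scaling (-0.58 ± 0.21, adjusted p = 0.0278), without Sham replicate 2 (0.0461) and without IUA replicate 3 (0.0499). With median-ratio scaling it was -0.09 ± 0.23 (adjusted p = 0.768).

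Ccl8 (MCP-2), which in mice also acts on CCR8 and is known from resident and alternatively activated macrophages, stood at 1350 FPKM in Sham replicate 1, 675 in replicate 2 and 858 in replicate 3. The IUA libraries held 1244, 434 and 1369.7 FPKM, followed by 521, 467 and 532 in control MSC, and 463, 313 and 394 in primed MSC. The treated groups were low and narrow, while IUA held 2 high libraries and IUA replicate 2 within the treated range. Ccl8 fell in primed MSC against IUA (log2 change -1.23 ± 0.37, adjusted p = 0.0370) and against Sham (-1.26 ± 0.37, adjusted p = 0.0113). The first call was lost without any single library of those groups other than IUA replicate 2 (adjusted p = 0.0651 to 0.1495), and the second without Sham replicate 1 (0.0516) or with median-ratio scaling (0.0732). The first was also lost with no filter (0.0808), a fit to the compared groups alone (0.0732), array weights (0.0746) and the GC correction (0.0503). Control MSC against IUA was -0.84 ± 0.37 (adjusted p = 0.248), and without IUA replicate 2 it passed (-1.37 ± 0.24, adjusted p = 0.0397). Ccl12 (MCP-5), a rodent CCR2 ligand, ranged from 50.5 to 179.6 FPKM over all 12 libraries, its groups overlapped in all 6 comparisons, and no log2 change reached beyond -0.63 ± 0.33 (control MSC against IUA, adjusted p = 0.324).

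Ccl22 (MDC), the CCR4 ligand made by dendritic cells and by macrophages under interleukin 4, was near the floor of the table. It stood at 2.20, 1.85 and 2.67 FPKM in Sham, 7.43, 5.68 and 4.09 in IUA, 2.62, 2.21 and 5.56 in control MSC, and 2.11, 3.69 and 2.76 in primed MSC. All IUA libraries were above all Sham and primed MSC libraries, and control MSC replicate 3 sat inside the IUA range. Ccl22 rose in IUA against Sham (log2 change 1.03 ± 0.27 on the log2(FPKM + 1) scale, which understates changes this low, adjusted p = 0.00666). Against IUA, primed MSC was at -0.80 ± 0.27 (adjusted p = 0.0577) and control MSC at -0.64 ± 0.27 (adjusted p = 0.231). With the epithelial covariate the rise in IUA did not pass (0.58 ± 0.42, adjusted p = 0.355), whereas the difference of primed MSC from IUA did (-0.88 ± 0.27, adjusted p = 0.0359). The latter also passed without control MSC replicate 3 (adjusted p = 0.0265). The 6 dendritic cell markers summed to 29.3 to 40.6 FPKM in Sham, 35.1 to 70.5 in IUA, 26.4 to 43.4 after control MSC and 35.7 to 50.5 after primed MSC. Of the 4 that could be tested, 2 were higher in IUA than in Sham (Xcr1 with means of 9.17 and 5.50 FPKM, Ccr7 with 34.5 and 15.2) and 2 were lower (Zbtb46 with 3.62 and 7.47, Fscn1 with 0.943 and 4.91). Of all tested genes 11.1% were higher and 45.0% lower in that comparison. Flt3 and Clec9a averaged at most 0.42 FPKM in every group. The B cell markers Cd79a and Ms4a1 were low and summed to 0.32 to 0.83 FPKM in Sham libraries, 0.97 to 4.26 in those of IUA, 0.80 to 1.87 after control MSC and 0.98 to 1.10 after primed MSC. Cd79a, the one of them with enough signal to test, was higher in IUA than in Sham. The part of either list in the Ccl22 values was not tested.

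Counted together, 4 of the 10 genes rose in IUA against Sham (Ccl3, Ccl6, Ccl9 and Ccl22) and none fell, where 56.2% of all tested genes passed, 11.1% by rising and 45.0% by falling. In these 4 genes every IUA library was above every Sham library, as in 11.9% of all tested genes, and no gene of the 10 had the opposite separation, which 47.7% had. The median log2 change of the 10 was 0.56 beside -0.35 for all tested genes. Of the 6 that did not pass, Ccl2 and Ccl7 lay below the median of all genes, at -0.47 and -0.59, and the others above it. With median-ratio scaling the changes of Ccl4 and Ccl8 turned from below to above 0 without passing, and Ccl3, Ccl6, Ccl9 and Ccl22 kept their direction. Of all genes called in this comparison 19.8% were higher, a share that was 48.2% with median-ratio scaling and 50.9% after the GC correction. With the epithelial covariate 2 of the 10 rose, and without IUA replicate 3 a total of 7 changed, 5 up and 2 down. With TPM scaling 6 changed, 4 up and 2 down (Ccl2 and Ccl7).

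In control MSC against IUA none of the 10 passed by limma, beside 0.853% of all tested genes (0.724% higher and 0.129% lower). At an unadjusted p under 0.05 there were 3 (Ccl6, Ccl8 and Ccl22), all lower in control MSC, beside 18.8% of all tested genes (6.45% lower). Ccl6 was lower in every control MSC library than in every IUA library, a separation that 7.33% of all tested genes had, and none of the 10 had the opposite one (14.8%). The changes were below 0 in 7 genes and above 0 in 3, with a median of -0.23 against 0.02 for all tested genes. In primed MSC against IUA, Ccl6 and Ccl8 fell and none rose, where 19.1% of all tested genes passed, 6.97% by falling and 12.2% by rising. The groups did not overlap for Ccl6, Ccl9 and Ccl22, all lower, where 17.4% of all tested genes were lower without overlap and 20.1% higher. Of the 10 changes 9 were below 0, and the median was -0.48 beside -0.03 for all tested genes. These comparisons share the IUA libraries. In primed against control MSC none of the 10 passed, beside 0.112% of all tested genes (0.0776% higher and 0.0345% lower), and 2 (Ccl6 and Ccl9) had an unadjusted p under 0.05, both lower in primed MSC, beside 12.9% of all tested genes (6.44% lower). Groups did not overlap for 4 of the 10 (Ccl6, Ccl7, Ccl8 and Ccl9), all lower, where 12.9% of all tested genes were lower without overlap and 12.3% higher. Fitted to the compared groups alone, those 2 passed (adjusted p = 0.0418 and 0.0376), as they did with array weights (0.0241 and 0.0364).

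Against Sham, 3 of the 10 rose in control MSC (Ccl3, Ccl6 and Ccl9) and none fell, where 56.8% of all tested genes passed, 14.1% by rising and 42.7% by falling. These 3 were higher without overlap (17.0% of all tested genes), and Ccl7 and Ccl8 were lower without overlap (49.6%). The replicate block, which takes the replicate numbers of the labels as pairs, gave 5, adding falls of Ccl7 (adjusted p = 0.0415) and Ccl8 (0.0177). In primed MSC the same 3 rose and Ccl2, Ccl7 and Ccl8 fell, where 59.5% of all tested genes passed, 14.5% by rising and 45.0% by falling. Ccl6 and Ccl9 were higher without overlap (17.5% of all tested genes), and the 3 that fell were lower without overlap (50.6%). With median-ratio scaling the share of higher calls over all genes went from 24.8% to 49.4% in control MSC and from 24.4% to 49.9% in primed MSC, and the changes of Ccl2 and Ccl4 in control MSC and of Ccl4 and Ccl12 in primed MSC turned above 0 without passing. These comparisons share the Sham libraries with each other and with IUA against Sham.

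**Figure D2:**
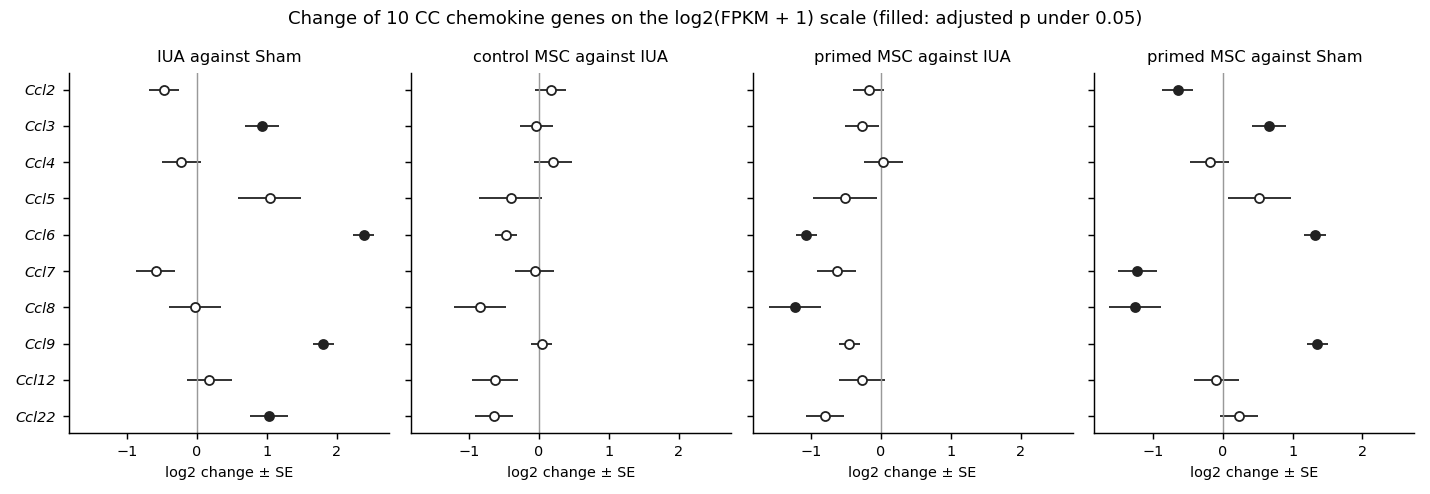
Log2 change on the log2(FPKM + 1) scale with its SE (x axis) of each of the 10 genes (y axis) in 4 comparisons, filled where the adjusted p was under 0.05. Ccl6 and Ccl9 lie farthest to the right in IUA against Sham at 2.38 and 1.80, and Ccl7 and Ccl8 farthest to the left in primed MSC against Sham at -1.22 and -1.26.

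The make-up of the chemokine RNA differed between Sham and the other groups. The summed FPKM of the 10 genes was 3809 to 7160 in Sham, 5055 to 6693 in IUA, 4459 to 5131 after control MSC and 2990 to 4544 after primed MSC, so the totals overlapped between Sham and each other group. The 4 MCP genes made up 69.0 to 71.8% of that sum in Sham, 36.4 to 58.3% in IUA, 45.3 to 49.3% after control MSC and 43.6 to 47.1% after primed MSC. No library of the other groups reached the Sham range. Ccl7 alone held 38.0 ± 1.16% of the sum in Sham and 22.3 ± 4.72% in IUA, (SD, n = 3), whereas Ccl6 held 4.00 to 4.83% and 16.0 to 25.2%. The Sham shares were narrow although Sham replicate 1 had the highest value of its group for 9 of the 10 genes, which that library raised together. Shares of one sum are tied to each other, and no test was made of them.

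**Figure D3:**
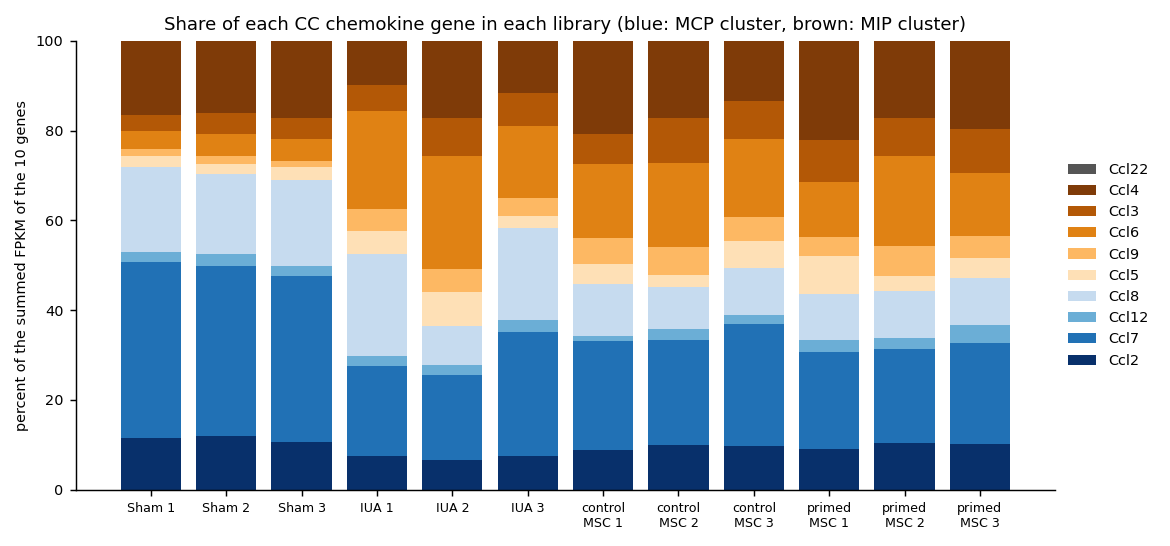
Percent of the summed FPKM of the 10 genes held by each gene (y axis) in each library (x axis). The MCP genes, in blue, take 69.0 to 71.8% in Sham and at most 58.3% in any other library.

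**Figure D4:**
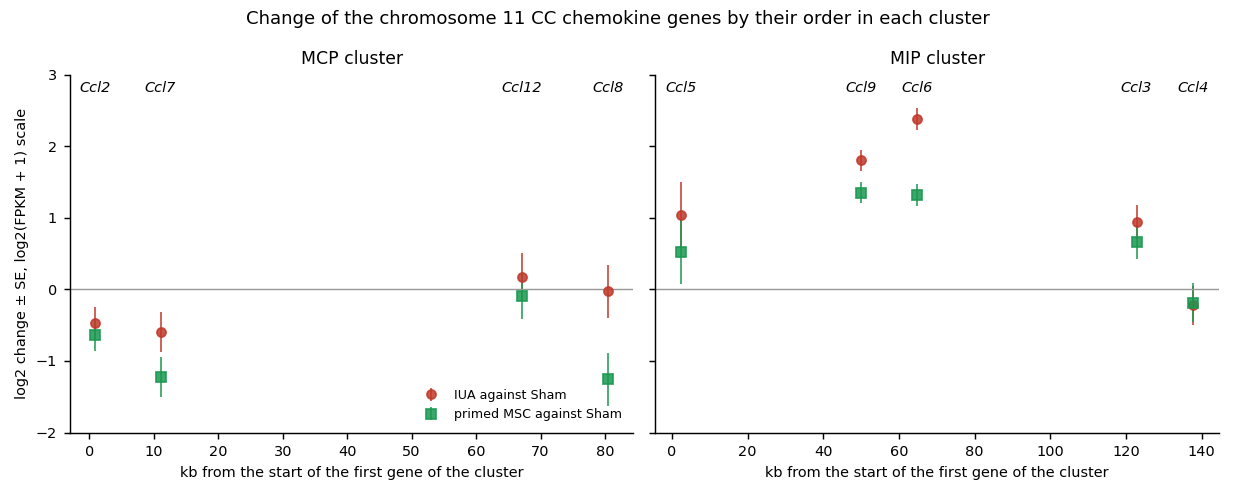
Log2 change with SE (y axis) of the chromosome 11 genes at their distance from the start of the first gene of their cluster (x axis, kb), for IUA and primed MSC against Sham. In the MIP cluster Ccl5, Ccl9, Ccl6 and Ccl3 lie above 0 in both comparisons, of which Ccl5 passed in neither, Ccl4 lies below 0, and in the MCP cluster no gene passed in IUA.

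Set against the macrophage markers of the same library, the genes divided further. Ccl6 was 5.35 to 6.27% of the summed FPKM of the 9 markers in Sham, 15.4 to 19.4% in IUA, 9.62 to 11.6% after control MSC and 6.76 to 7.06% after primed MSC. The groups stayed apart, with IUA 2.85 times Sham. Ccl9 was 1.84 to 2.16% in Sham, 3.46 to 3.99% in IUA, 3.33 to 3.78% after control MSC and 2.23 to 2.56% after primed MSC, again with IUA above Sham, 1.91 times. Ccl3 was 5.10 to 6.13% in Sham and 4.15 to 7.30% in IUA, and Ccl22 was 0.0467 to 0.0779% and 0.0600 to 0.0962%, so both overlapped between these groups on this scale. Ccl7 was 42.0 to 59.7% in Sham and 14.3 to 27.2% in IUA, and Ccl2 was 13.3 to 17.6% and 5.14 to 7.31%. Ccl4 was 17.9 to 25.0% in Sham and 6.89 to 13.1% in IUA, and Ccl12 was 2.95 to 3.26% and 1.52 to 2.63%. On this scale Ccl2, Ccl4, Ccl7 and Ccl12, from both clusters, were lower in every IUA library than in every Sham library, which was not so for their FPKM, while Ccl8 and Ccl5 overlapped. The divisor was 3427 to 4706 FPKM in Sham and 6558 to 7726 in IUA, so it lowers any gene in IUA relative to Sham. The share of all tested genes with this separation was not computed on this scale. The ratio was chosen after the data were seen, has no test, and depends on the markers, which themselves differed between groups. Of the 9 markers, 8 were higher in IUA than in Sham, beside 11.1% of all tested genes. All 9 were higher than in Sham in each treated group, beside 14.1% in control MSC and 14.5% in primed MSC. For example, mean Adgre1 was 223, 434, 939.9 and 1175 FPKM in Sham, IUA, control MSC and primed MSC.

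Cells other than macrophages also express MCP genes, and the marker sums of several other cell types are given here by group. The 5 stroma markers (Pdgfra, Col1a1, Col1a2, Dcn, Lum) summed to 399 to 767 FPKM in Sham, 237 to 759 in IUA, 115 to 197 after control MSC and 88.7 to 186 after primed MSC, and the 4 endothelial markers to 134 to 236, 69.7 to 83.4, 62.6 to 98.0 and 68.0 to 77.8 in the same order. Of the 4 MCP genes, Ccl2 and Ccl7 had their highest mean in Sham, whereas Ccl8 and Ccl12 had theirs in IUA. The 4 neutrophil markers summed to 2.50 to 8.34 FPKM in Sham, 33.3 to 129 in IUA, 67.3 to 149 after control MSC and 49.7 to 166 after primed MSC, and Ly6g, which defines neutrophils, averaged at most 0.417. The 5 monocyte markers summed to 108 to 124 FPKM in Sham, 946 to 4995 in IUA, 847 to 1798 after control MSC and 556 to 654 after primed MSC, where Chil3 gave most of it outside Sham. Smooth muscle markers, 4 genes, summed to 281 to 899 FPKM in Sham libraries and 58.7 to 236 elsewhere, and 3 mast cell markers to 46.5 to 57.8 and 5.80 to 27.9. The eosinophil gene Epx was listed at 0 in every library. The part of these lists in the chemokine values was not tested.

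The receptors of these ligands were measured in the same bulk libraries, which do not show which cells held them. Of 10 CC chemokine receptor genes, 4 had enough signal to test. In IUA against Sham 3 rose and none fell, beside 11.1% and 45.0% of all tested genes, and the median log2 change was 1.02 beside -0.35. Ccr1, the receptor of Ccl6 and Ccl9, stood at 54.3, 46.9 and 45.8 FPKM in Sham and 282, 215 and 242 in IUA, without overlap, and rose by 2.30 ± 0.12 (adjusted p = 3.68e-07). Ccr1 was at 202, 215 and 254 in control MSC and 184, 167 and 185 in primed MSC, where it fell against IUA (-0.45 ± 0.12, adjusted p = 0.0240) and stayed above Sham (1.85 ± 0.12, adjusted p = 1.16e-06). The order of group means was that of Ccl6. Ccr2, the receptor of Ccl2, Ccl7 and Ccl12, stood at 26.1 ± 3.63 FPKM in Sham and 53.5 ± 11.3 in IUA, a rise of 1.00 ± 0.20 on the log2 scale (adjusted p = 0.00132). It was at 34.9 ± 10.7 after control MSC and 35.7 ± 2.24 after primed MSC and passed in neither against IUA (adjusted p = 0.133 and 0.0672). In IUA against Sham, where Ccr2 rose, its ligands Ccl2, Ccl7 and Ccl12 did not pass.

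Ccr7, which guides dendritic cells to lymph nodes, rose in IUA against Sham (1.04 ± 0.32, adjusted p = 0.0154), with 54.9 FPKM in IUA replicate 1 and 25.1 and 23.3 in the others. Ccr3, the eotaxin receptor, fell in primed MSC against IUA (-0.91 ± 0.21, adjusted p = 0.0127) at levels of 1.07 ± 0.121 and 3.04 ± 1.39 FPKM. In the treated groups, 0 of the 4 receptors passed in control MSC against IUA by limma (2 had an unadjusted p under 0.05, Ccr2 and Ccr3), beside 0.853% of all tested genes adjusted and 18.8% unadjusted. In primed MSC against IUA 2 fell (Ccr1 and Ccr3) and none rose, beside 6.97% and 12.2% of all tested genes.

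Of 6 genes on a list of atypical receptors and chemokine-handling genes, 3 were tested. All 3 passed in IUA against Sham, 1 higher and 2 lower, where 56.2% of all tested genes passed (11.1% higher, 45.0% lower). Ccrl2, an atypical receptor of activated myeloid cells, rose by 1.25 ± 0.14 on the log2 scale, with 189.9 ± 25.1 FPKM in Sham and 454 ± 59.3 in IUA (adjusted p = 5.38e-05). Ackr1, the decoy receptor of venous endothelium and red cells, fell from 76.2 ± 31.7 to 36.4 ± 13.0 FPKM (adjusted p = 0.0468). Its groups overlapped, with Sham replicate 3 (41.6) below IUA replicate 1 (51.4). Dpp4, a peptidase that trims chemokine ends and marks epithelium and T cells, fell without overlap (-1.45 ± 0.38, adjusted p = 0.00692). Ackr1 fell further in primed MSC against IUA (-1.26 ± 0.39, adjusted p = 0.0434).

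Of 11 other CC chemokine genes on a list drawn up for comparison, 7 could be tested. In IUA against Sham 1 rose and 1 fell (Ccl24 and Ccl27a), beside 11.1% and 45.0% of all tested genes. The median log2 change of the 7 was -0.16 beside -0.35 for all tested genes. Ccl24 (eotaxin-2), the eosinophil attractant, rose from 4.79 ± 1.16 to 79.5 ± 39.3 FPKM and was at 36.3 ± 8.01 after control MSC and 19.7 ± 10.3 after primed MSC, the same order of means as Ccl6. Ccl11 (eotaxin-1), which lies between Ccl7 and Ccl12 on chromosome 11, stood at 11.9 ± 7.44, 6.33 ± 1.78, 3.35 ± 1.57 and 1.56 ± 0.657 FPKM in Sham, IUA, control MSC and primed MSC, and fell in primed MSC against IUA (-1.52 ± 0.40, adjusted p = 0.0215). In that comparison 4 of the 7 fell (Ccl11, Ccl21a, Ccl24 and Ccl27a) and none rose, where 6.97% of all tested genes fell and 12.2% rose. Ccl21a and Ccl27a have near-identical copies among which reads could be divided, so their values are uncertain. Ccl17, the other CCR4 ligand beside Ccl22, reached 1.62 FPKM at most and was not tested.

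**Figure D5:**
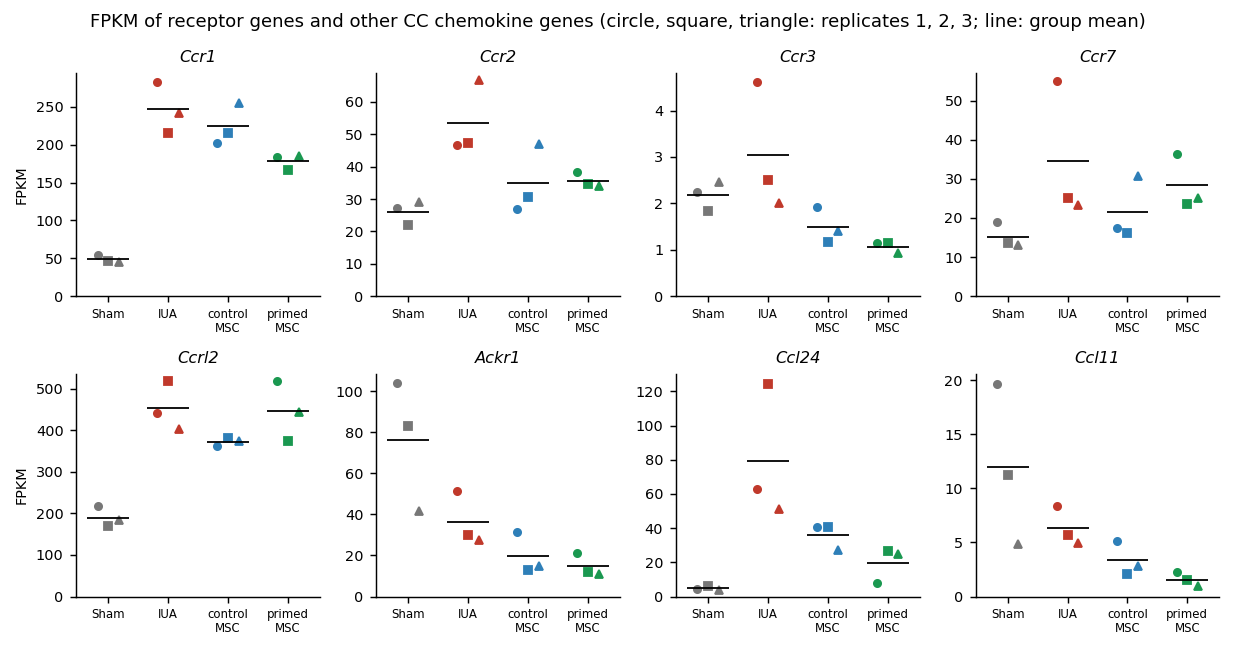
FPKM (y axes, linear from 0) of CC chemokine receptors, Ccrl2, Ackr1 and the eotaxin genes Ccl24 and Ccl11 in the 3 libraries of each group (points) with the group mean (line). Ccr1 lies at 45.8 to 54.3 in Sham and at 167 to 282 in all other libraries, and Ackr1 and Ccl11 have their highest means in Sham.

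For each of the 10 genes the tested genes with the most similar course over the 12 libraries were listed, by the Pearson correlation r of log2(FPKM + 1), as a description that mixes differences between and within groups. Ccl9 went with Gngt2 (r = 0.989) and Emp3 (0.988), and Ccl6 with Wfdc17 (0.98) and Rgcc (0.979). Ccl3 went with the neutrophil attractant Cxcl2 (0.936) and Hacd2 (0.926), and Ccl8 with the lectin Clec10a (0.938), a marker of alternatively activated macrophages, and P2ry13 (0.936). Ccl2 and Ccl7, neighbours on the chromosome, were each other's closest gene (0.93), followed by Stxbp6 (0.891) for Ccl2 and Ift20 (0.92) for Ccl7. The closest genes were less close for Ccl22 (Cd79a 0.91, Zfp971 0.896), Ccl5 (Fam102b 0.832, Layn 0.817), Ccl12 (Eif2a 0.811, Scimp 0.764) and Ccl4 (Mcm9 0.805, Hp 0.725), and Ccl4, Ccl5 and Ccl12 are among the genes that did not differ over the 4 groups.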

How the data were processed

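FPKM values, rounded to 2 decimals, were made by the authors and deposited as 1 table of genes by libraries. Of software, the submitters' processing notes list DESeq2, RSEM, StringTie, HISAT2 and fastp, with mm10 as the build, and no versions. Annotation, strand setting and the handling of reads with several matches are not given in the sources used here. FPKM summed to 505459.9 to 563751 per library, which is not a depth. Ratios of low values (0.1 to 0.6 FPKM) between libraries showed no common step of whole reads (at most 6.54% of ratios in any log2 bin of 0.05, over 66 pairs), so the depth is unknown and no count test was run.

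Levels were taken as log2(FPKM + 1), keeping genes that reached FPKM 1 in 3 or more libraries, and analysed with limma 3.58.1 (R 4.3.3): all 12 libraries in 1 fit, a mean for each group, moderated variances with a trend. P-values were two-sided and Benjamini-Hochberg adjusted over the 11604 tested genes, and those under 0.05 are called a rise or fall. The fit was run on simulated data of independent genes with few changes, which checks the code and not the calls made here. With 3 libraries on each side, no exact permutation p can be under 0.1, so none was used. The 10 genes and all lists were chosen with earlier results of these data known. Named are all 10, some list members that passed or define a list, and the 2 tested genes most correlated with each of the 10, without predicted, clone, immunoglobulin and T cell receptor symbols. Other list members passed as well, such as Ccl25 (lower, adjusted p = 0.0288) and Ccl28 (higher, 0.0452) in primed MSC against Sham by limma. A receptor and a marker gene of the lists are not reported here. Alternatives were pseudocounts of 0.1 and 0.5, no filter, a filter at FPKM 5, TPM and median-ratio scaling, a fit to the compared groups only, the replicate number as a block, array weights, robust variances and each library left out. A GC correction (lowess, span 0.3), the epithelial marker mean as a covariate and the ratio to macrophage markers were added after seeing the data. Gene by gene, the alternatives were examined only for the 10 genes. The calls of receptors, handling genes, other CC chemokines and markers were not checked against them.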

Additional observations from a re-analysis of the deposited data

How the results depend on the processing

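Of 1440 refits of a single gene's change (10 genes, 6 comparisons, 24 alternatives), 1377 kept their side of the threshold, with the same direction where a change passed, 27 lost the call, 36 gained it and none passed with the opposite sign. The count of the 10 genes that passed over the 4 groups was 3 with the epithelial covariate instead of 6, and 4 to 6 with 1 library left out. In IUA against Sham it was 2 instead of 4 with that covariate, 6 with TPM scaling (4 rises and 2 falls) and 4 to 7 with 1 library left out. In primed MSC against IUA it was 1 instead of 2 with no filter or the GC correction, 4 with the covariate, and 1 to 3 with 1 library left out. In primed against control MSC it was 2 instead of 0 with the compared groups alone or array weights, and 0 with any library left out. In control MSC against IUA it was 0 to 1 with 1 library left out, the 1 being Ccl8 without IUA replicate 2. In control MSC against Sham it was 5 instead of 3 with TPM scaling or the replicate block, and 3 to 5 with 1 library left out. In primed MSC against Sham it was 3 instead of 6 with the covariate and 4 to 6 with 1 library left out. The covariate was 8.48 to 9.33 in Sham and 6.30 to 7.92 elsewhere, so it cannot be told apart from the Sham group.

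Over all genes, IUA against Sham gave 6517 calls, 1135 with the covariate and 5300 to 6352 with 1 library left out, and with median-ratio scaling 48.2% of its calls were higher instead of 19.8%. With TPM scaling 15% were. Control MSC against IUA gave 99, and 29 with no filter, 55 with median-ratio scaling, 16 with the compared groups alone, 43 with the replicate block, 61 with the GC correction and 5 to 329 with 1 library left out (329 without IUA replicate 1, 5 without control MSC replicate 2). Primed MSC against IUA gave 2219, 1381 with the compared groups alone and 1154 to 2560 with 1 library left out. Primed against control MSC gave 13, then 4 and 5 with pseudocounts of 0.1 and 0.5, 0 with no filter or the replicate block, 5 with the filter at FPKM 5, 230 with the compared groups alone, 388 with array weights, 20 with robust variances or the covariate, and 0 to 233 with 1 library left out. Control MSC against Sham gave 6592, 714 with the covariate and 5457 to 7016 with 1 library left out. Primed MSC against Sham gave 6903, 1361 with the covariate and 5832 to 7292 with 1 library left out. The causes were not tested. For libraries of the same replicate number, deviations from the group means correlated at -0.293 to 0.288, at most 0.1 in 15 of 18 pairs. Libraries of unlike numbers were not compared, so these values cannot decide whether the numbers pair libraries.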
